A study of Mus musculus with 8 samples.

Results

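The 38 genes described here encode the enzymes that build, desaturate, elongate, activate, import and oxidise long-chain fatty acids, with the nuclear receptors of the PPAR family that bind such lipids. They were matched by symbol to a list of gene names that sets no threshold on measured values, though the list was drawn up with earlier results of these data known, and all 38 were among the 49492 genes of the count table. By role, 15 synthesise, desaturate or elongate fatty acids, 4 activate them to acyl-CoA, 16 take them up or oxidise them, and 3 are nuclear receptors. The counts came from RNA sequencing of CD8+ T cells taken with CD8a beads from subcutaneous B16 tumours, grown from a mouse melanoma line, on day 14. Both groups carried PLPP1fl/fl alleles, that is, floxed Plpp1, the gene of a phosphatase that removes phosphate from phosphatidic acid. Controls, PLPP1fl/fl, had no Cre, and knockouts, Lckcre-PLPP1fl/fl, also carried Lck-Cre, a recombinase driven in the T lineage, so other cells of the tumour keep the gene. Each group held 4 libraries. The animals are described as female, and neither their age nor whether libraries of a group came from separate animals is given, so each p-value reflects only how far these libraries vary, and that variation may be technical.

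Fatty acids are made in the cytosol from citrate. ATP citrate lyase frees acetyl-CoA, acetyl-CoA carboxylase turns it into malonyl-CoA, and fatty acid synthase joins these units into palmitate. In the endoplasmic reticulum the chain is lengthened by a cycle of condensing, reducing, dehydrating and again reducing enzymes, and double bonds are set by desaturases. For oxidation an acyl-CoA synthetase activates the acid, the carnitine shuttle carries it into mitochondria, and dehydrogenases, hydratases and thiolases cut it stepwise. Dividing T cells are known to lean on synthesis and memory CD8+ T cells on oxidation, and the enzymes of the former are known targets of the transcription factor SREBP1.

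Facts of the whole series bear on every value below. Total counts per library ran from 44118131 to 61999941, and the floor of 3 counts equalled 0.0484 to 0.068 CPM (counts scaled to equal library size). Counts of Plpp1 were lower in knockouts and not absent, at 0.892 ± 0.18 CPM in controls and 0.498 ± 0.14 CPM in knockouts (SD, n = 4), with overlapping groups. It shares 102 exonic bases with the opposite-strand gene Skiv2l2, so reads there cannot be assigned to either. Y-linked Ddx3y stood at 78.3 ± 3.1 CPM in knockouts and 0.0703 ± 0.043 CPM in controls, and Xist at 51.1 ± 4.4 and 746 ± 27.5 CPM (SD, n = 4). Y-linked RNA and low Xist in the knockouts do not match the description of the animals as female. Genotype and this difference in sex-linked RNA changed together in all 8 libraries and cannot be told apart. Of 8 T cell markers 7 fell and 1 rose, Cd8a stood at 331 ± 5.4 and 239.5 ± 7.8 CPM, and Cd4 at 2.32 ± 0.16 and 1.52 ± 0.096 CPM (controls and knockouts, SD, n = 4). Of 5 CD4 and regulatory T cell markers 1 rose and 1 fell, Cd4 being the fall and Il2ra the rise, from 233 ± 4.2 to 1015 ± 16.1 CPM. Of 6 NK and gamma-delta T cell markers 4 rose, Eomes, Trdc, Tcrg-C1 and Klrb1c, and the 6 summed to between 25.9 and 31.2 CPM in controls and between 50.04 and 54.3 CPM in knockouts. Of 2 tested melanoma markers Pmel fell, from 16.9 ± 0.93 to 4.32 ± 0.45 CPM, sharing exons with Dgka, and Tyr, Tyrp1 and Mlana were at 0 in all 8 libraries. The part of such cells in the results was not tested. In bulk libraries a difference in cell composition and a difference in RNA per cell cannot be told apart.

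Promoter windows, 250 bases before to 50 after an annotated start, were taken from RefSeq on GRCm38.p6, and 32 of the 38 genes matched, with 38 windows. Scd1, Scd2, Fads1, Fabp5, Acaa2 and Decr1 had no entry. Shown are the windows of Fasn and Hsd17b12, which rose, of Cpt1a, which fell, of Cd36, the member with the largest change, and the window of Acsl1 that holds a sterol response element. Capitals mark matches, on either strand, to CCAAT and to the sterol response element TCACNCCAC. On the opposite strand the former reads ATTGG. All are written 5′ to 3′ along the gene's strand.
Fasn, chr11:120824498-120824797, minus strand: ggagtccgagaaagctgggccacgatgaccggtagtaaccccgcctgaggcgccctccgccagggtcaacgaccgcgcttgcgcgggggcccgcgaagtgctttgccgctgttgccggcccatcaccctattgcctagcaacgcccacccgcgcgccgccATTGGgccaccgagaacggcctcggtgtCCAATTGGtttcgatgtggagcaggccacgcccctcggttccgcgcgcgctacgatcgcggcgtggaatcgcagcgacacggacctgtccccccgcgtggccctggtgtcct
Hsd17b12, chr2:94157860-94158159, minus strand: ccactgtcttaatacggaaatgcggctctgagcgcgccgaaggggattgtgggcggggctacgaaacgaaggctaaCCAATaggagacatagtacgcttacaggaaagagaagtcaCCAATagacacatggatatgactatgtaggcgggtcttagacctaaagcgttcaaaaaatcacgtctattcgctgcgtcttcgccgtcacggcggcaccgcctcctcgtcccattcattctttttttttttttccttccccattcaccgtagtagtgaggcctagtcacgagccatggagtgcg
Cpt1a, chr19:3323051-3323350, plus strand: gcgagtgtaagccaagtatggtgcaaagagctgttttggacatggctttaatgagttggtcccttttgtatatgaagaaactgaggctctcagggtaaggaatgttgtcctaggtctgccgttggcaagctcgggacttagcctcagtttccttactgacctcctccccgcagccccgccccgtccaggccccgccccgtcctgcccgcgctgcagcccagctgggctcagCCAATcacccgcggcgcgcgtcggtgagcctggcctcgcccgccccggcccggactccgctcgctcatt
Cd36, chr5:17835847-17836146, minus strand: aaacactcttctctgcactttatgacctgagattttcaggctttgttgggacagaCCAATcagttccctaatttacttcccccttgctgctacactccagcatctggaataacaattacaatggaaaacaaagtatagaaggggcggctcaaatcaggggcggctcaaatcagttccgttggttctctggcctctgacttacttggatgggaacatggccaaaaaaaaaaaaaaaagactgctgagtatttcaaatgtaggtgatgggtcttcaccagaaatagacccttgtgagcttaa
Acsl1, chr8:46490716-46491015, plus strand: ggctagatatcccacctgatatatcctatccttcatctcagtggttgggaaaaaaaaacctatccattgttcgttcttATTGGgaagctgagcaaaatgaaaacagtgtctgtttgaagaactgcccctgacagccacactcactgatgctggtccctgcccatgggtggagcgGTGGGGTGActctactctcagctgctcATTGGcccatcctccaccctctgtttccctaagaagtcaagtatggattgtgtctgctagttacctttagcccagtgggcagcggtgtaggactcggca

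CCAAT, on either strand, occurred in 20 of the 38 members' windows (52.6%) and in 37.4% of all 32851 windows of that length. In Fasn there were 3 matches, beginning 90, 62 and 59 bases before the start, and the last pair overlaps. The sterol response element occurred in 1.24% of all windows and, among the members, in the Acsl1 window alone, 76 bases before the start. The E-box CACGTG occurred in 7.15% of all windows and in Elovl5 alone among the members, and the GC box GGGCGG in 35.7% of all windows and 28 of the members' 38. The direct-repeat PPAR element, searched by its consensus, occurred in 0.0396% of all windows and in 0 of the members' windows. A match describes these letters and not a bound site.

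Of the 38 genes, 37 passed the filter on low counts and Ppara did not. Knockout libraries differed from controls in 28 of the 37 (75.7%), 19 higher and 9 lower, at a Benjamini-Hochberg adjusted p under 0.05 in edgeR's quasi-likelihood test. The background is broad, since 64.3% of all 17940 tested genes passed the same rule, 32.8% higher and 31.6% lower. An alternative filter, a CPM of at least 1 in at least 4 libraries, left 14054 genes. Of these 10253 were called, a larger share than 64.3%, with 18 members higher and 9 lower. Acacb, Fads3 and Ppara did not pass that filter, and the excess of called members over all genes was smaller under it. The shares below keep the first filter, and so are set beside the lower background. Of the 15 synthesis and elongation genes 8 rose and 6 fell (93.3% of the 15), with a median log2 fold change of 0.37. That median is the value of Fads3, a barely detected gene. Of the 16 uptake and oxidation genes 7 rose and 3 fell (62.5%), a share near the background, with a median of 0.093. The median over all tested genes was -0.012. No library of one group reached the range of the other in 29 members, 20 with knockouts above and 9 below, where 58.3% of all tested genes were so parted. Called changes of over 2-fold were seen in 7 members (18.9% of 37), against 13.3% of all tested genes. Of the 7, 6 were higher, where 5.80% of all tested genes were, and 1 was lower, where 7.55% were. These were Scd1, Hsd17b12, Acsl1, Acsl6, Cd36 and Pparg upward and Elovl7 downward.

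**Figure D1:**
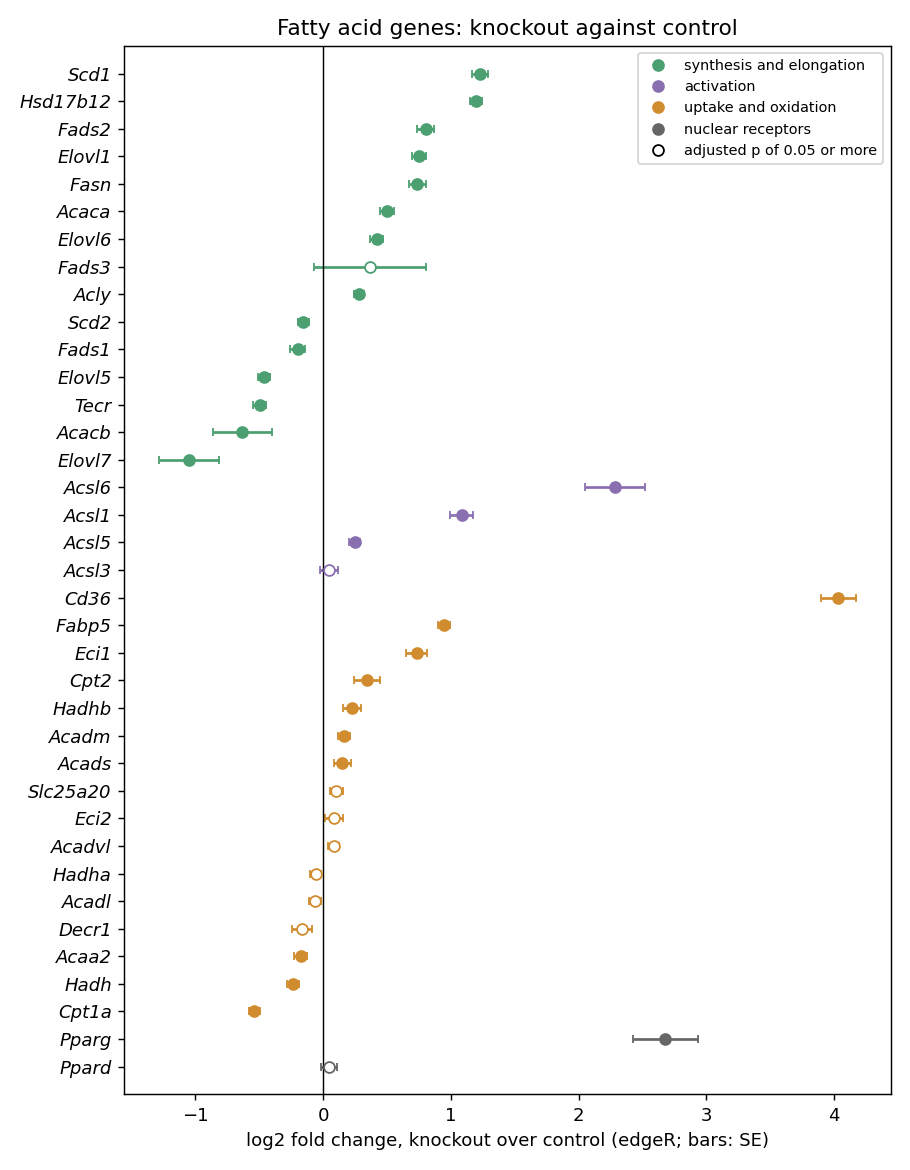
Log2 fold change of knockouts over controls for the 37 tested genes (x axis), ordered within each role; bars are standard errors and open circles did not pass the adjusted threshold of 0.05. Synthesis and elongation genes lie on both sides of 0, from Elovl7 at -1.05 to Scd1 at 1.23, while most oxidation genes lie close to 0 and Cd36 stands at 4.03.

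Acly, Acaca and Fasn, the core path to palmitate, were higher in knockouts. Acly, which cleaves citrate to acetyl-CoA, stood at 142, 146, 140 and 139 CPM in the 4 controls and at 169, 178, 176 and 167 CPM in the 4 knockouts. Every knockout was above every control, though by a small step, with a rise of 0.28 on the log2 scale (SE 0.042, adjusted p = 3.8e-06 in edgeR's quasi-likelihood test, as for every adjusted p here). Acaca, the cytosolic acetyl-CoA carboxylase that commits carbon to synthesis, gave 60.4, 66.8, 65.4 and 56.8 CPM in controls and 86.7, 95.5, 90.6 and 79.8 CPM in knockouts. The groups were apart and the rise was 0.50 on the log2 scale (SE 0.057, edgeR adjusted p = 1.2e-07). Fasn, fatty acid synthase itself, read 157, 163, 150 and 159 CPM in controls and 255, 287, 284 and 222 CPM in knockouts. Knockouts were more spread than controls but lay wholly above them, and Fasn rose by 0.74 (SE 0.067, edgeR adjusted p = 3.5e-08), to 167% of the control mean. Acacb, the carboxylase isoform at the mitochondrial surface whose malonyl-CoA restrains CPT1, went the other way at a very low level, from 0.913 ± 0.17 to 0.585 ± 0.098 CPM (SD, n = 4). Its fall of 0.63 (SE 0.23, edgeR adjusted p = 0.020) rested on 24 to 72 counts per library. Without control replicate 2, the highest control, it was -0.49 at adjusted p = 0.096. Per kilobase of exon Acaca exceeded Acacb 39.2 ± 5.9-fold in controls and 86.4 ± 14-fold in knockouts (SD, n = 4).

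Stearoyl-CoA desaturases place the double bond that makes oleate from stearate, and their genes form a cluster on chromosome 19. Scd4, outside the members, lies between Scd2 and Scd1 and is given with the other genes below. Scd1 (GRCm38, 44394451 to 44407709, minus strand) stood at 8.84, 8.38, 8.59 and 8.46 CPM in controls and at 19.8, 20.8, 19.7 and 19.9 CPM in knockouts. Replicates of a group were almost level and the groups were far apart, with a rise of 1.23 on the log2 scale (SE 0.060, edgeR adjusted p = 2.7e-14). Scd2 (44293676 to 44306864, plus strand), the isoform of brain and lymphoid cells in mice, gave 254, 259, 268 and 252 CPM in controls and 229, 226, 236 and 238 CPM in knockouts. It was the more abundant by far and fell by 0.15 (SE 0.043, edgeR adjusted p = 0.0033), with the groups just apart. Per kilobase of exon the level of Scd2 was 26.8 ± 1.0 times that of Scd1 in controls and 10.3 ± 0.47 times in knockouts (SD, n = 4). These paralogs are alike in sequence, so reads may be divided among them.

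Fatty acid desaturases of the polyunsaturated path sit in another cluster on chromosome 19 and also parted. Fads2, the delta-6 desaturase that acts at the entry step (10064164 to 10101503, minus strand), read 28.8, 28.4, 24.9 and 30.1 CPM in controls and 47.8, 51.8, 53 and 43.1 CPM in knockouts. All knockouts were above all controls, and the rise was 0.80 (SE 0.065, edgeR adjusted p = 1.2e-09). Fads1, the delta-5 desaturase of the later step (10182888 to 10196870, plus strand), read 18.3, 17.5, 17.6 and 17.5 CPM in controls against 15.2, 16, 14.7 and 16.1 CPM in knockouts. The groups were apart by a narrow margin, and Fads1 fell by 0.20 (SE 0.058, edgeR adjusted p = 0.0047). Fads3, their neighbour, held 4 to 14 counts per library, 0.156 ± 0.046 and 0.2 ± 0.075 CPM (SD, n = 4), with overlapping groups (edgeR adjusted p = 0.48).

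In the elongation cycle different enzymes of the same kind moved in opposite directions. Among the condensing enzymes, Elovl1, which lengthens saturated very long chains, gave 15.1, 15, 15.2 and 14.1 CPM in controls and 24.2, 25.2, 25 and 25.4 CPM in knockouts. The step between groups far exceeded the spread within them, at 0.75 (SE 0.054, edgeR adjusted p = 2.8e-11). It shares 53 exonic bases with the opposite-strand gene Cdc20, which at its mean density would bring 3.56 CPM to controls and 3.79 CPM to knockouts if reads were spread evenly. The part of that overlap in the Elovl1 result was not tested. Elovl6, which takes palmitate to stearate, stood at 76.7, 79.3, 70.2 and 74.3 CPM in controls and 96.5, 109, 102 and 94.4 CPM in knockouts, a rise of 0.42 (SE 0.051, edgeR adjusted p = 1.4e-07) with groups apart. Elovl5, which elongates polyunsaturated chains, fell from 50.2, 48.1, 50.4 and 49.9 CPM to 37.6, 33.7, 34.6 and 38.3 CPM. No knockout reached a control, and the change was -0.46 (SE 0.049, edgeR adjusted p = 2.0e-08). Elovl7, a scarce isoform at 16 to 72 counts per library, fell by 1.05 (SE 0.23, edgeR adjusted p = 4.4e-04), from 1.11 ± 0.087 to 0.538 ± 0.18 CPM (SD, n = 4). Per kilobase of exon, Elovl1 stood at 0.387 ± 0.016 of the Elovl5 level in controls and at 0.898 ± 0.062 of it in knockouts (SD, n = 4).

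The reducing enzymes that serve all these elongases were divided as well. Hsd17b12, the 3-ketoacyl-CoA reductase, read 40.4, 36.6, 35 and 37.8 CPM in controls and 82, 86, 90 and 85.2 CPM in knockouts. Every knockout exceeded the highest control by far, and the rise of 1.20 (SE 0.049, edgeR adjusted p = 1.1e-15) brought it to 229% of the control mean. Tecr, the enoyl-CoA reductase that closes the cycle, fell from 200, 191, 172 and 205 CPM to 137, 136, 142 and 131 CPM. Knockouts were tightly grouped below the lowest control, and the fall was 0.49 (SE 0.051, edgeR adjusted p = 1.1e-08). Per kilobase of exon Tecr remained the most abundant of the 15 synthesis genes in both groups, at 87.7 ± 6.6 and 62.2 ± 2.0 CPM per kb (SD, n = 4).

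**Figure D2:**
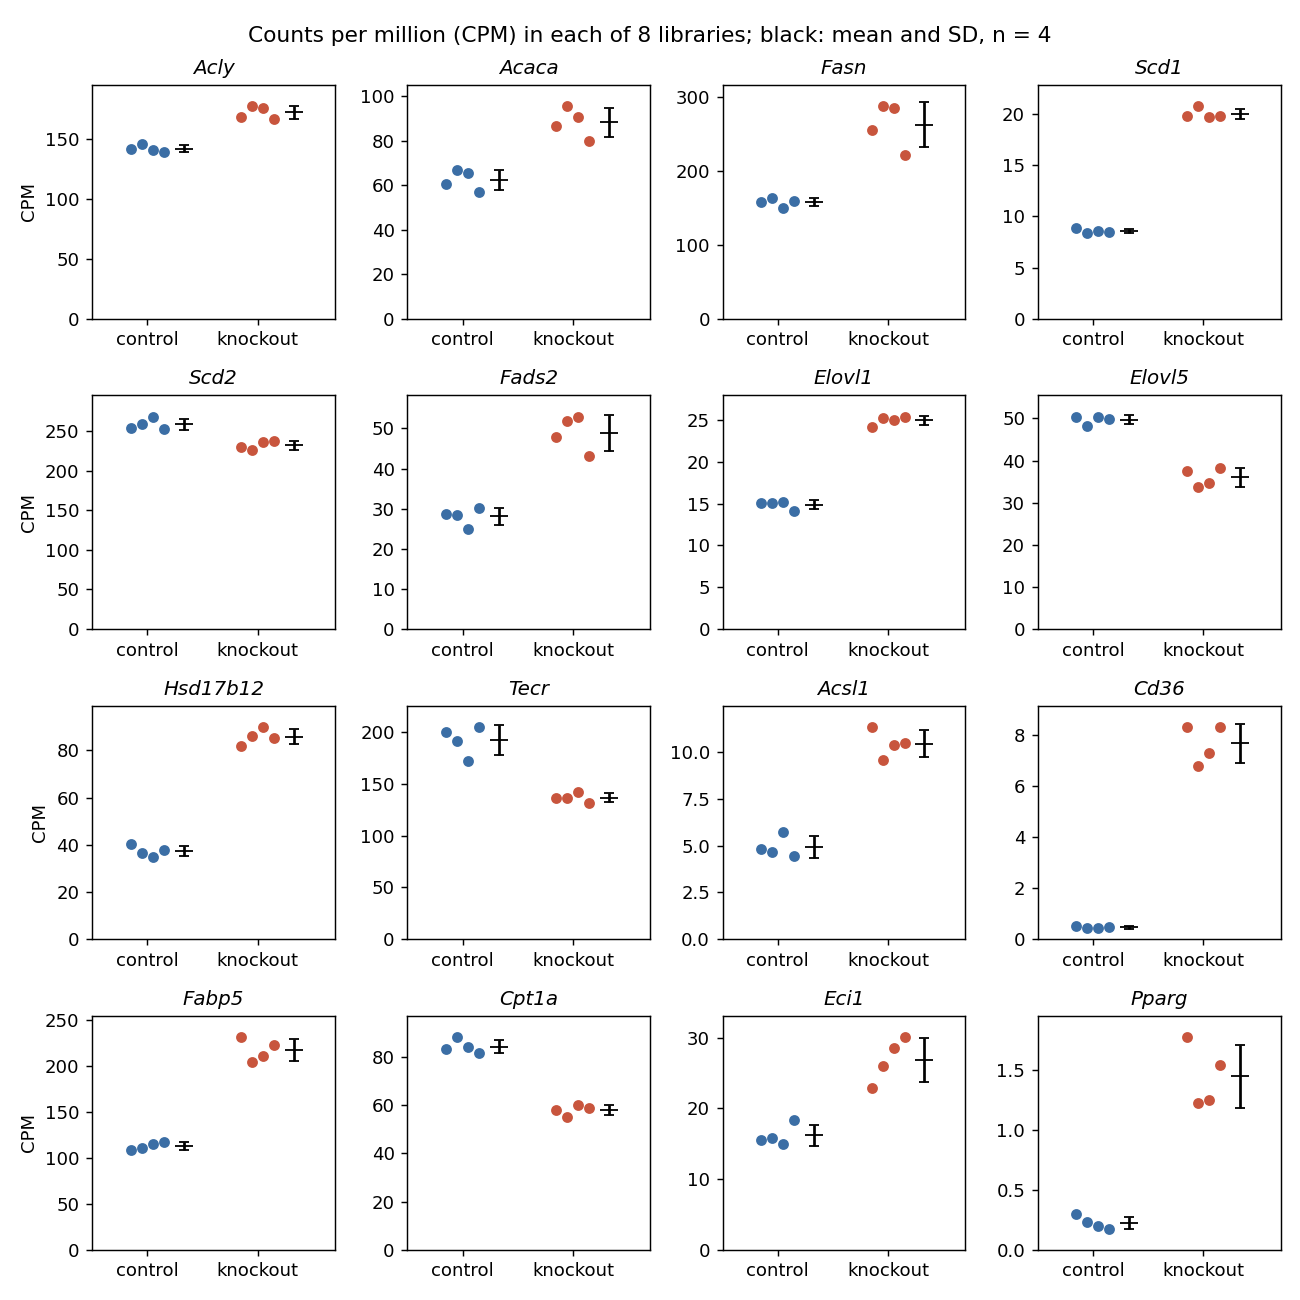
CPM (y axis, from 0) of 16 chosen members in each of 4 control and 4 knockout libraries, with the mean and SD of each group in black. In all 16 panels the groups are apart, as in 58.3% of all tested genes, and members with overlapping groups are not shown. Acly, Acaca, Fasn, Scd1, Fads2, Elovl1, Hsd17b12, Acsl1, Cd36, Fabp5, Eci1 and Pparg are higher in knockouts. Scd2, Elovl5, Tecr and Cpt1a are lower.

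Long-chain acyl-CoA synthetases trap a fatty acid by coupling it to coenzyme A, and 3 of the 4 rose. That is 75% of few genes, where 64.3% of all tested genes were called and 32.8% were higher. Acsl5, a mitochondrial and reticular form and the main one here, went from 195, 208, 204 and 200 CPM to 240, 237, 229 and 250 CPM. The groups did not touch, and the rise was 0.25 (SE 0.044, edgeR adjusted p = 3.9e-05). Acsl1, a form tied to both storage and oxidation in other tissues, gave 4.83, 4.67, 5.75 and 4.45 CPM in controls and 11.3, 9.57, 10.3 and 10.5 CPM in knockouts. It rose by 1.09 (SE 0.089, edgeR adjusted p = 2.3e-10), well clear of the control range. Acsl6, known best from brain and red cell precursors, rose by 2.28 (SE 0.23, edgeR adjusted p = 1.1e-08), from 18 to 32 counts per control library to 64 to 128 per knockout. Acsl6 shares 202 exonic bases with the opposite-strand gene Gm12224, which averaged 0.154 CPM in controls and 0.82 CPM in knockouts. Acsl1 shares 1039 with the opposite-strand gene Gm45244, at 0.0463 and 0.0716 CPM. The part of these overlaps in the results was not tested. Acsl3, the form on lipid droplets, stood at 11.3 ± 0.67 and 11.7 ± 0.48 CPM (SD, n = 4) with overlapping groups (edgeR adjusted p = 0.57). Per kilobase Acsl5 exceeded Acsl3 24.7 ± 1.9-fold in controls and 28.3 ± 2.1-fold in knockouts (SD, n = 4).

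Both uptake and binding genes were higher in knockouts. Cd36, the scavenger receptor that takes up fatty acids and oxidised lipoprotein, held 32, 26, 22 and 28 counts in controls and 360, 310, 418 and 420 in knockouts. In CPM this was 0.524, 0.422, 0.426 and 0.487 against 8.29, 6.76, 7.28 and 8.3, so that no knockout was near a control. The log2 fold change of 4.03 (SE 0.14, edgeR adjusted p = 2.8e-17) was the greatest of the 37 and ranked 31 by absolute size among the 17940 tested genes. Per kilobase of exon Cd36 was nevertheless a modest transcript in knockouts, at 2.13 CPM per kb. Fabp5, the cytosolic fatty acid binding protein of epidermis and T cells, was abundant throughout, at 108, 110, 115 and 118 CPM in controls and 231, 204, 211 and 223 CPM in knockouts. The groups were wide apart, with a rise of 0.95 (SE 0.048, edgeR adjusted p = 3.8e-14).

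Because Cd36 is also carried by macrophages, dendritic cells, platelets, erythroid cells, endothelium and adipocytes, markers of these cells are given beside it. The 12 macrophage and monocyte markers summed to 22 to 24.4 CPM in controls and 21.6 to 23.6 CPM in knockouts, most of it Apoe at 16.1 ± 0.83 and 16.8 ± 0.66 CPM, and 1 rose and 1 fell among 6 tested. Csf1r, the receptor for a macrophage growth factor, rose with Cd36, from 1.28 ± 0.25 to 2.00 ± 0.25 CPM, Itgam fell from 2.26 ± 0.31 to 0.557 ± 0.19 CPM, and Cd68 stood at 2.38 ± 0.24 and 2.14 ± 0.29 CPM. The defining genes Adgre1, Mertk, C1qa, C1qb, C1qc and Ms4a7 averaged at most 0.0598 CPM, the mean of Mertk in knockouts. The 8 adipocyte markers summed to 0.193 to 0.452 CPM in controls and 0.237 to 0.48 CPM in knockouts, and Lep was at 0 in all 8 libraries. Among 7 dendritic cell markers, summing to 11 to 11.7 and 14.2 to 16.8 CPM, 2 rose and 1 fell of 4 tested, with Cd209a at 0. Zbtb46 rose with Cd36, from 0.62 ± 0.16 to 2.37 ± 0.33 CPM, as did H2-Ab1, from 8.53 ± 0.24 to 11 ± 1.3 CPM. Itgax fell from 1.26 ± 0.19 to 0.594 ± 0.12 CPM. The 7 erythroid and platelet markers moved with Cd36, summing to 7.66 to 9.5 CPM in controls and 19.5 to 23.2 CPM in knockouts, and 5 of 6 tested rose. In that list Itga2b, an integrin chain of platelets, rose by 1.20, and the globin genes Hbb-bs and Hba-a1 by 1.40 and 0.97. The platelet chemokine gene Pf4, named after its values were seen, rose by 2.45, from 0.915 ± 0.34 to 4.97 ± 0.79 CPM (SD, n = 4). The 6 endothelial markers summed to 99.6 to 112 CPM in controls and 26.6 to 31.7 CPM in knockouts, nearly all of it Pecam1, and 2 rose and 1 fell among 3 tested. Pecam1 fell, while Vwf rose with Cd36, from 0.466 ± 0.19 to 1.40 ± 0.11 CPM, as did Tek, from 0 to 4 counts per control library to 12 to 16 per knockout. Cdh5 and Emcn were at or near 0. The part of such cells in the Cd36 result was not tested.

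**Figure D3:**
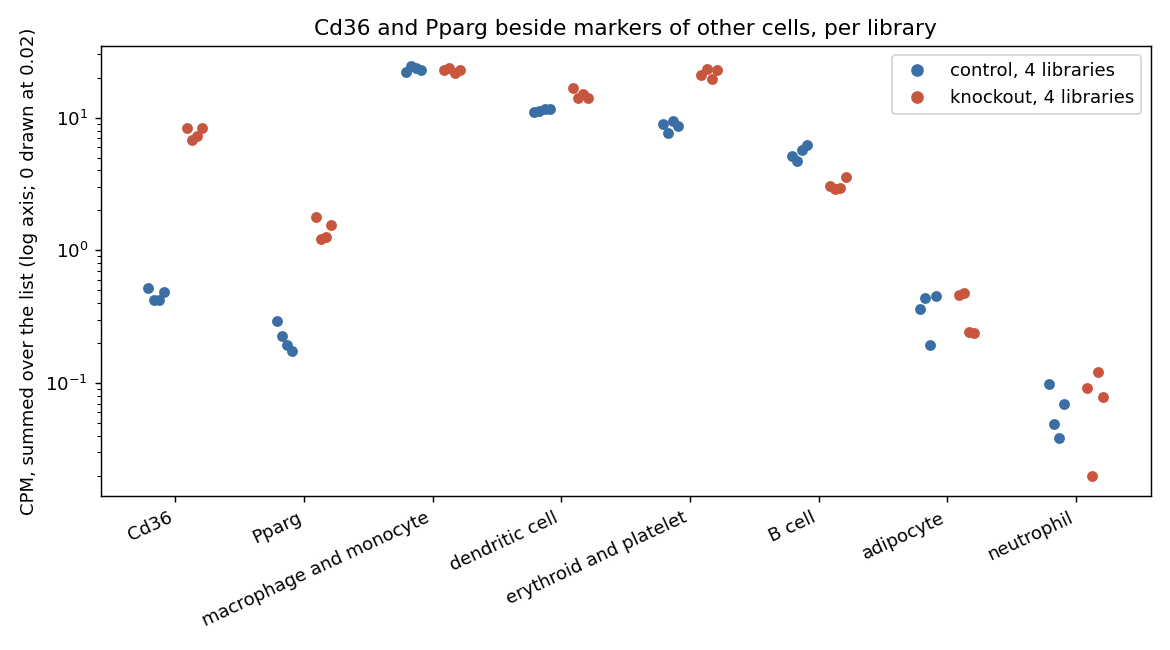
CPM (log axis, 1 point per library) of Cd36 and Pparg and of 6 lists of markers of other cells, each summed over the list, with a value of 0 drawn at 0.02. Cd36, Pparg, the dendritic cell list and the erythroid and platelet list are higher in all 4 knockouts, and the B cell list is lower. The macrophage and monocyte sums of 22 to 24.4 and 21.6 to 23.6 CPM overlap, as do the adipocyte and the neutrophil sums.

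At the mitochondrial gate the shuttle genes were divided. Cpt1a, the carnitine palmitoyltransferase of the outer membrane and the rate-setting step of long-chain oxidation, read 83.5, 88.3, 84.3 and 81.7 CPM in controls and 58.1, 55.3, 60.3 and 59 CPM in knockouts. All knockouts were well below all controls, and Cpt1a fell by 0.54 (SE 0.045, edgeR adjusted p = 2.9e-10), to 68.9% of the control mean. Cpt2, its partner on the inner membrane, went from 3.57, 3.47, 3.13 and 3.55 CPM to 4.47, 4.1, 4.42 and 4.43 CPM, a rise of 0.34 (SE 0.10, edgeR adjusted p = 0.0046) in groups that did not overlap. Slc25a20, the carrier that exchanges acylcarnitine for carnitine, stood at 24.7 ± 1.1 and 26.5 ± 0.56 CPM (SD, n = 4), with overlapping groups. It did not pass the test (edgeR adjusted p = 0.082), but did without control replicate 2 (adjusted p = 0.0493).

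The enzymes of the beta-oxidation spiral differed little. Of the acyl-CoA dehydrogenases, which open each turn, the medium-chain Acadm went from 39.1 ± 1.4 to 43.9 ± 1.8 CPM (SD, n = 4), a rise of 0.17 (SE 0.047, edgeR adjusted p = 0.0039). The short-chain Acads passed narrowly, from 12.9 ± 0.52 to 14.4 ± 0.88 CPM (edgeR adjusted p = 0.045), and lost the call under 14 of 18 other settings, including the fits that leave out control replicate 1, 2, 3 or 4 (adjusted p = 0.115, 0.123, 0.0519 and 0.0603) or knockout replicates 1 and 2 (adjusted p = 0.0989 and 0.164). The very-long-chain Acadvl stood at 72.2 ± 1.6 and 76.4 ± 0.75 CPM (edgeR adjusted p = 0.084), and shares 1151 exonic bases, 42.9% of its length, with the opposite-strand gene Dvl2. The long-chain Acadl stood at 79.3 ± 2.4 and 75.7 ± 4.8 CPM (edgeR adjusted p = 0.23). Its estimate was -0.12 (adjusted p = 0.018) without knockout replicate 4, which read 82.8 CPM where the other 3 knockouts read 72.8 to 73.9.

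The later steps of the spiral were as mixed. Hadha and Hadhb, which encode the subunits of the trifunctional protein and lie head to head on chromosome 5, stood at 105 ± 4.3 and 101 ± 1.0 CPM (edgeR adjusted p = 0.23) and at 11.9 ± 0.70 and 13.9 ± 1.0 CPM (a rise of 0.22, SE 0.070, edgeR adjusted p = 0.0072). Hadh, the hydroxyacyl-CoA dehydrogenase of shorter chains, fell from 40.5 ± 2.1 to 34.3 ± 1.4 CPM, or by 0.24 (SE 0.050, edgeR adjusted p = 2.7e-04). Acaa2, the thiolase that releases acetyl-CoA, fell from 39.4 ± 1.8 to 34.9 ± 1.8 CPM, or by 0.17 (SE 0.051, edgeR adjusted p = 0.0045). The exception in size was Eci1, an isomerase that prepares unsaturated chains for oxidation, at 15.6, 15.8, 14.9 and 18.4 CPM in controls and 22.8, 25.9, 28.5 and 30.1 CPM in knockouts. It rose by 0.73 (SE 0.080, edgeR adjusted p = 2.0e-07), with the lowest knockout above the highest control. The related Eci2 stood at 13.5 ± 0.95 and 14.3 ± 1.2 CPM (edgeR adjusted p = 0.31). Decr1, the reductase for polyunsaturated chains, stood at 11.3 ± 0.45 and 10.1 ± 1.1 CPM (edgeR adjusted p = 0.066), and without knockout replicate 4 at -0.23 (adjusted p = 0.0087). All errors here are SDs over 4 libraries.

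Setting the roles side by side, levels per kilobase of exon summed over the 15 synthesis and elongation genes came to 258, 254, 241 and 258 CPM per kb in controls and 274, 284, 289 and 268 in knockouts. The 14 genes of import and oxidation, without Cd36 and Fabp5, summed to 174, 179, 182 and 182 in controls and to 176, 178, 179 and 190 in knockouts. The synthesis sums were apart by a small step, and the oxidation sums overlapped. The ratio of synthesis to oxidation was 1.48, 1.42, 1.33 and 1.41 in controls. In knockouts it was 1.56, 1.59, 1.61 and 1.41, so the groups overlapped in this ratio. Without these uptake genes the 14 oxidation genes gave 5 rises and 3 falls (57.1%), a median of 0.083 and 0 changes of over 2-fold. Neither the sums nor their ratio were tested. When changes were tested against a fold of 1.5 in place of 1, 11 of 37 members passed (29.7%), against 17.5% of all tested genes. Of these 5 rises and 1 fall were synthesis genes, 2 rises were Cd36 and Fabp5, and 0 were oxidation genes.

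**Figure D4:**
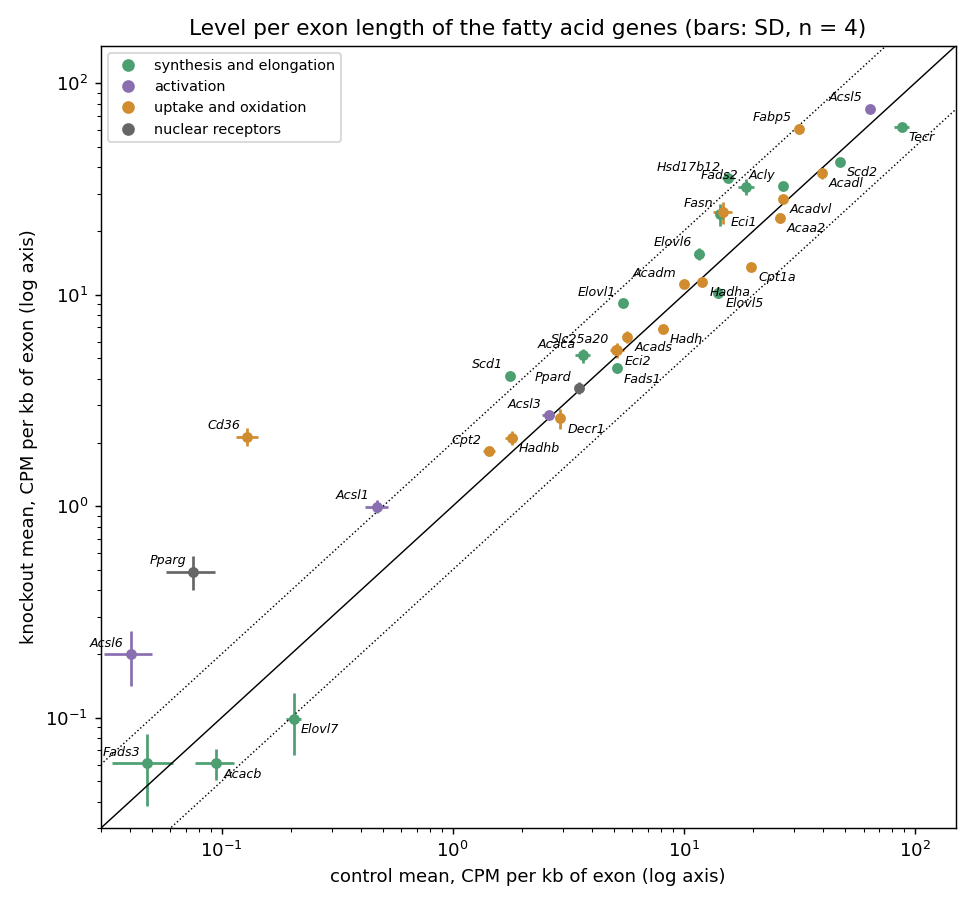
Mean level per kilobase of exon in controls (x axis) and knockouts (y axis), both log axes, with SDs over 4 libraries; the solid line marks equal levels and the dotted lines a 2-fold difference, and Ppara lies off the axes. Cd36, Pparg and Acsl6 stand apart above the line at low levels, and Acsl1, Scd1 and Hsd17b12 also lie above the upper dotted line. Elovl7 lies below the lower dotted line. Most oxidation genes keep close to the line of equal levels, with Eci1 further above it and Cpt1a further below it.

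Of the PPAR genes, nuclear receptors that switch on lipid handling when bound by fatty acids, 1 of 2 tested rose. Pparg, the receptor of adipocytes and macrophages, held 18, 14, 10 and 10 counts in controls and 77, 56, 72 and 78 in knockouts, that is 0.222 ± 0.053 and 1.45 ± 0.26 CPM (SD, n = 4). Every knockout was above every control and the rise was 2.68 (SE 0.25, edgeR adjusted p = 3.1e-09), at a level that stayed low. Ppard, the widely expressed form, stood at 16.2 ± 0.54 and 16.8 ± 1.1 CPM (SD, n = 4) with overlapping groups (edgeR adjusted p = 0.54). Ppara, the liver form that drives oxidation genes there, held 0 to 2 counts per library, under the floor in both groups. Of their partners, the retinoid X receptors, Rxra rose by 1.16 (SE 0.10), from 2.37 ± 0.22 to 5.28 ± 0.11 CPM. The more abundant Rxrb did not rise, at 32.4 ± 0.28 and 30.3 ± 1.2 CPM (edgeR adjusted p = 0.099), with every knockout below every control. The listed PPAR targets of other tissues were mostly too scarce to test: 2 of 5 tested rose (40%, where 32.8% of all tested genes rose), Plin2 and Angptl4, and 0 fell.

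Other genes of the same paths, from lists likewise drawn up with earlier results known, were called at 64.3% (synthesis and elongation), 38.5% (uptake, activation and binding), 52.6% (regulators) and 55.6% (oxidation) of those tested, beside the background of 64.3%. Of 14 tested genes of synthesis and elongation outside the members 8 rose and 1 fell. The fall was Scd4, named after its values were seen, from 0.92 ± 0.02 to 0.356 ± 0.042 CPM (SD, n = 4). The 3-hydroxyacyl-CoA dehydratases Hacd3 and Hacd2, which act between Hsd17b12 and Tecr, rose by 0.49 (SE 0.048) and 0.54 (SE 0.066), and Mid1ip1, an activator of acetyl-CoA carboxylase, by 0.40 (SE 0.044). The malic enzyme gene Me1, a source of NADPH for synthesis and named after its values were seen, rose from 0.0791 ± 0.037 to 1.2 ± 0.38 CPM. Of 13 tested genes of uptake, activation and binding 2 rose and 3 fell. Acsl4, which prefers arachidonate, rose by 0.77 (SE 0.044), and Acsf2 and the fatty acid transporter gene Slc27a1 fell by 0.62 (SE 0.059) and 0.76 (SE 0.14). Of 19 tested regulators 7 rose and 3 fell. Nr1h2, which encodes liver X receptor beta, fell by 0.38 (SE 0.049) and the SREBP anchor gene Insig1 rose by 0.31 (SE 0.046). Srebf1, named after its values were seen, fell from 41.1 ± 2.3 to 34.8 ± 1.1 CPM (edgeR adjusted p = 2.0e-04), while Srebf2 stood at 147 ± 3.3 and 151 ± 10 CPM (edgeR adjusted p = 0.46; SD, n = 4).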

How the data were processed

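The 8 libraries, 4 controls and 4 knockouts, are strand-specific mRNA libraries per the labels' protocols. The authors deposited raw read counts per gene. The submitters' processing notes name Trimmomatic 0.36, featureCounts, Subread 1.5.1 and the build GRCm38. The deposited length, a unit other than counts, is the summed exon length in bases per the file headers. The strand setting, aligner and annotation release were not given in the sources used here, so genes sharing exons are uncertain. Of genes with 1 to 10 counts, 85.7% to 87.7% had an even count, so both mates of a pair appear to have been counted.

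Counts were tested in edgeR 4.0.16 (R 4.3.3) after filterByExpr and TMM scaling, with a robust quasi-likelihood F test, two-sided, and Benjamini-Hochberg adjustment over 17940 genes. Each SE is the size of the log2 fold change over the root of its F value. CPM uses TMM-scaled totals, and CPM per kb divides by the deposited length. The biological coefficient of variation was 0.0627. The fit was tested on simulated counts. Library pairs differed by 1.68 to 4.46 times sampling noise within groups and 28.1 to 39.6 times between them (median chi-square per gene, counts divided by 2). Same-numbered libraries deviated together at correlations of 0.0049 to 0.0574, so the numbers were not used as pairs. DESeq2 1.42.0 and other settings served as alternatives. Every member is reported; other genes were named by adjusted p and a CPM of at least 1. Members and lists were chosen with earlier results of these data known. Floors cover counting error only.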

Additional observations from a re-analysis of the deposited data

Results flagged for a closer look

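Within groups of 4, a single library stood far from the other 3 in 7 of 74 member and group combinations, where chance gives about 1 in 20, or 3.7. Acadl read 82.8 CPM in knockout replicate 4 against 72.8 to 73.9 in the other knockouts, and Cpt2 read 4.1 CPM in knockout replicate 2 against 4.42 to 4.47. Scd1 read 20.8 CPM in knockout replicate 2 against 19.7 to 19.9, and Fads1 read 18.3 CPM in control replicate 1 against 17.5 to 17.6. Acacb read 0.731 CPM in knockout replicate 3 against 0.523 to 0.553, and Fads3 read 0.0872 CPM in knockout replicate 2 against 0.23 to 0.244, both at low counts. Hadha read 99.1 CPM in knockout replicate 1 where the other knockouts read 101. Scd1, Fads1 and Cpt2 kept their calls without that library.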

How the results depend on the processing

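Under 18 alternatives with a fold threshold of 1, 32 of 37 members kept their side of the threshold wherever they were fitted, and 0 called members changed direction. The exceptions were Acads, Acacb, Acadl, Slc25a20 and Decr1. Decr1 passed under 6 alternatives (adjusted p from 0.00873 to 0.0472) and Slc25a20 also among genes sharing no exons (adjusted p = 0.043). Tested against a 1.5-fold change, calls fell to 3145 of all genes and to 10 higher and 1 lower among members, 5 and 1 in synthesis and elongation and 2 and 0 in uptake and oxidation. Among genes whose exons overlap no other gene, 7312 of 11406 were called, since fewer genes were tested, and the uptake and oxidation median was 0.17. Leaving out each library gave synthesis medians of 0.26 to 0.43 and 3 to 5 falls in uptake and oxidation, the 5 without knockout replicate 4. With the replicate number as a block (replicate block), 11516 genes were called, with 18 members higher and 9 lower, and Acads was lost (adjusted p = 0.060). DESeq2 called 11206 genes. Genes under about 100 counts per library (Acacb, Elovl7, Acsl6, Pparg, Fads3) are limited by depth. Cd36 held 22 to 32 counts per control library, so the size of its fold change is limited by depth as well.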

Other observations

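Genes of lipid storage, from a list outside the members, showed the following. Of 14 tested lipid droplet genes 8 rose and 1 fell, a share of 64.3% that equals the background over all tested genes. Plin2, a coat protein of lipid droplets, rose by 0.86 (SE 0.048), from 29.2 ± 0.67 to 52.9 ± 2.5 CPM (SD, n = 4). Hilpda, an inhibitor of triglyceride lipase, rose by 1.30 (SE 0.12), and Fitm2, which helps bud droplets from the endoplasmic reticulum, by 0.88 (SE 0.11). Plin3, another droplet coat gene, named like Pnpla2 and Mgll after its values were seen, fell from 24.4 ± 1.2 to 17.9 ± 1.0 CPM. Mgll, the monoglyceride lipase gene, stood at 0.028 ± 0.037 and 1.12 ± 0.32 CPM (SD, n = 4). Pnpla2, the main triglyceride lipase, stood at 15.4 ± 1.3 and 15.4 ± 1.6 CPM (edgeR adjusted p = 0.99).

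Of 36 tested oxidation genes outside the members 13 rose and 7 fell (55.6%), below the background of 64.3%. The cytosolic acyl-CoA thioesterase gene Acot7 rose by 0.84 (SE 0.046), from 69.9 ± 2.5 to 125 ± 6.2 CPM. Abcd3, which encodes a peroxisomal importer of acyl chains, rose by 0.73 (SE 0.044), from 35.8 ± 0.81 to 59.2 ± 1.6 CPM (SD, n = 4).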
